A study of Mus musculus with 18 samples.

Results

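The expression of 10 genes of the machinery that decides between survival and apoptosis was followed in mouse lung neutrophils: 9 genes of the BCL2 family (Mcl1, Bcl2l1, Bcl2a1b, Bcl2a1d, Bcl2, Bcl2l11, Bid, Bax and Bcl2l15) and Cflar. They were chosen by name from this machinery, with earlier results of these data known. All 10 were found by symbol among the 40481 gene IDs of the count table. They were also among the 16575 genes with enough reads to be tested. Bcl2l15 had at most 14 reads in a naive library, so it passed the filter on low counts through the zymosan groups.

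The study compared wild-type (WT) C57BL/6 mice with C57BL/6 mice labelled CGD/CYBB KO. The Cybb product forms the electron-carrying core of the oxidase with which phagocytes make superoxide, and people without a working oxidase have chronic granulomatous disease (CGD). Cells of dissociated lung were sorted as live CD45+ CD11b+ Ly6G+ neutrophils and split by the surface protein CD101; the labels call CD101pos cells mature and CD101neg cells immature. There were 18 RNA sequencing libraries in 6 groups of 3: for WT and for CGD mice, CD101pos cells of naive animals, and CD101pos and CD101neg cells after zymosan. Zymosan, a yeast cell wall preparation, had been given intranasally at 20 µg, 24 h before the zymosan groups were taken. Mice of the zymosan groups were female and 13 weeks old, and the naive mice were male, untreated and 12 weeks old, so zymosan, sex and age cannot be told apart in any comparison with naive cells. The labels call the knockout by its gene alone and give no allele, and they do not say whether libraries came from separate animals or pools, so p-values measure only the spread between these samples.

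BCL2 family proteins control the outer mitochondrial membrane. MCL1, BCL-XL (from Bcl2l1), A1 (from the Bcl2a1 genes) and BCL2 hold the pore-forming effectors BAX and BAK in check, and BH3-only proteins such as BIM (from Bcl2l11) and BID release that hold. c-FLIP, from Cflar, acts upstream at death receptors, where it limits the activation of caspase-8. Neutrophils live briefly, depend on MCL1, make little BCL2 and raise A1 when inflammatory signals reach them.

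Libraries held 33.7 to 67.9 M counts in genes. Cybb stood between 29.6 and 59.5 CPM (counts per M, scaled with TMM factors) in the 9 CGD libraries and between 126 and 283 CPM in the 9 WT libraries. Cd101 was at 95.9 to 112 CPM in CGD libraries sorted as CD101pos after zymosan, below the 156 to 185 CPM of WT libraries sorted as CD101neg. Of the neutrophil markers, Ly6g, a marker of the sort, was at 6.78 CPM or more in every library. Reads in bulk samples cannot tell fewer cells of a type from less RNA per cell.

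Where Bcl2a1b and Bcl2a1d were counted, their near identity matters. The A1 gene is present in the mouse as copies a, b, c and d on chromosome 9, and the coding sequences of Bcl2a1a, Bcl2a1b and Bcl2a1d are each 516 bases long and differ among themselves at 12 positions. The first 90 coding bases are shown here from the GENCODE M21 transcripts (GRCm38) with their 6 differing positions in capitals, because such positions are what separates reads of one copy from those of another.
Bcl2a1a: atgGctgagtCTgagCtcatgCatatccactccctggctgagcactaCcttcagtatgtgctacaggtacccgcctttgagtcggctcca
Bcl2a1b: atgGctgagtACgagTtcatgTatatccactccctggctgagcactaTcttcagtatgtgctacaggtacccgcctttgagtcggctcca
Bcl2a1d: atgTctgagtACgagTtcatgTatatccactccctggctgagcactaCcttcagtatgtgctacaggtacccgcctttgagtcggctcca
Only 42.4% of the 50-base windows of the Bcl2a1b transcript and 20.5% of those of Bcl2a1d were found in no other copy, and with 100-base windows the shares were 68.9% and 45.3%. The sources used here do not say how reads that fit several copies were counted, and the split of reads between the copies is uncertain. The start regions of the copies were as alike. Their RefSeq promoter entries (GRCm38.p6, each 250 bases before to 50 after the start site) aligned with 96.0% to 99.2% identity, and a shared run of 140 bases differed at 3 positions, capitalised here to show how little sets the copies apart (chr9:88956830-88956969, + strand, for a; chr9:89199139-89199278, + strand, for b; chr9:88731801-88731940, − strand, for d).
Bcl2a1a: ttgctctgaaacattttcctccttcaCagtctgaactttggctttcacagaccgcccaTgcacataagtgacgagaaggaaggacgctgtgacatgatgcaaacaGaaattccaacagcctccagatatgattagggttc
Bcl2a1b: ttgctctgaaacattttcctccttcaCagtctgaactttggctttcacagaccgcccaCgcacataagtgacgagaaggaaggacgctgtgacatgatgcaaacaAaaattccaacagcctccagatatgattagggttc
Bcl2a1d: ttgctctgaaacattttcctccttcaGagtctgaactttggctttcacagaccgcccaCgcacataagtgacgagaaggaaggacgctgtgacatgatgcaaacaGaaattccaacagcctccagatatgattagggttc

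Per length, Mcl1 was the most abundant member in naive cells, where it stood at 176 CPM per kb of exon in WT and 197 in CGD, ahead of Bcl2a1d (59.2 and 103 CPM per kb). In both CGD zymosan groups Bcl2a1d came first on this scale, at 369 and 635 CPM per kb. These places rest on the counts as deposited, and the split of reads between the A1 copies is uncertain. It had the highest mean in the WT zymosan groups too (221 in CD101pos and 250.5 in CD101neg cells), but its libraries spread from 57.0 to 428 there, and without replicate 1 its means were 140.4 and 162 CPM per kb, below those of Mcl1 at 210.3 and 188. Bcl2l15 and Bcl2 took the last 2 places in every group on the per-length scale, Bcl2 with at most 0.709 CPM per kb and Bcl2l15 with at most 9.45.

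**Figure D1:**
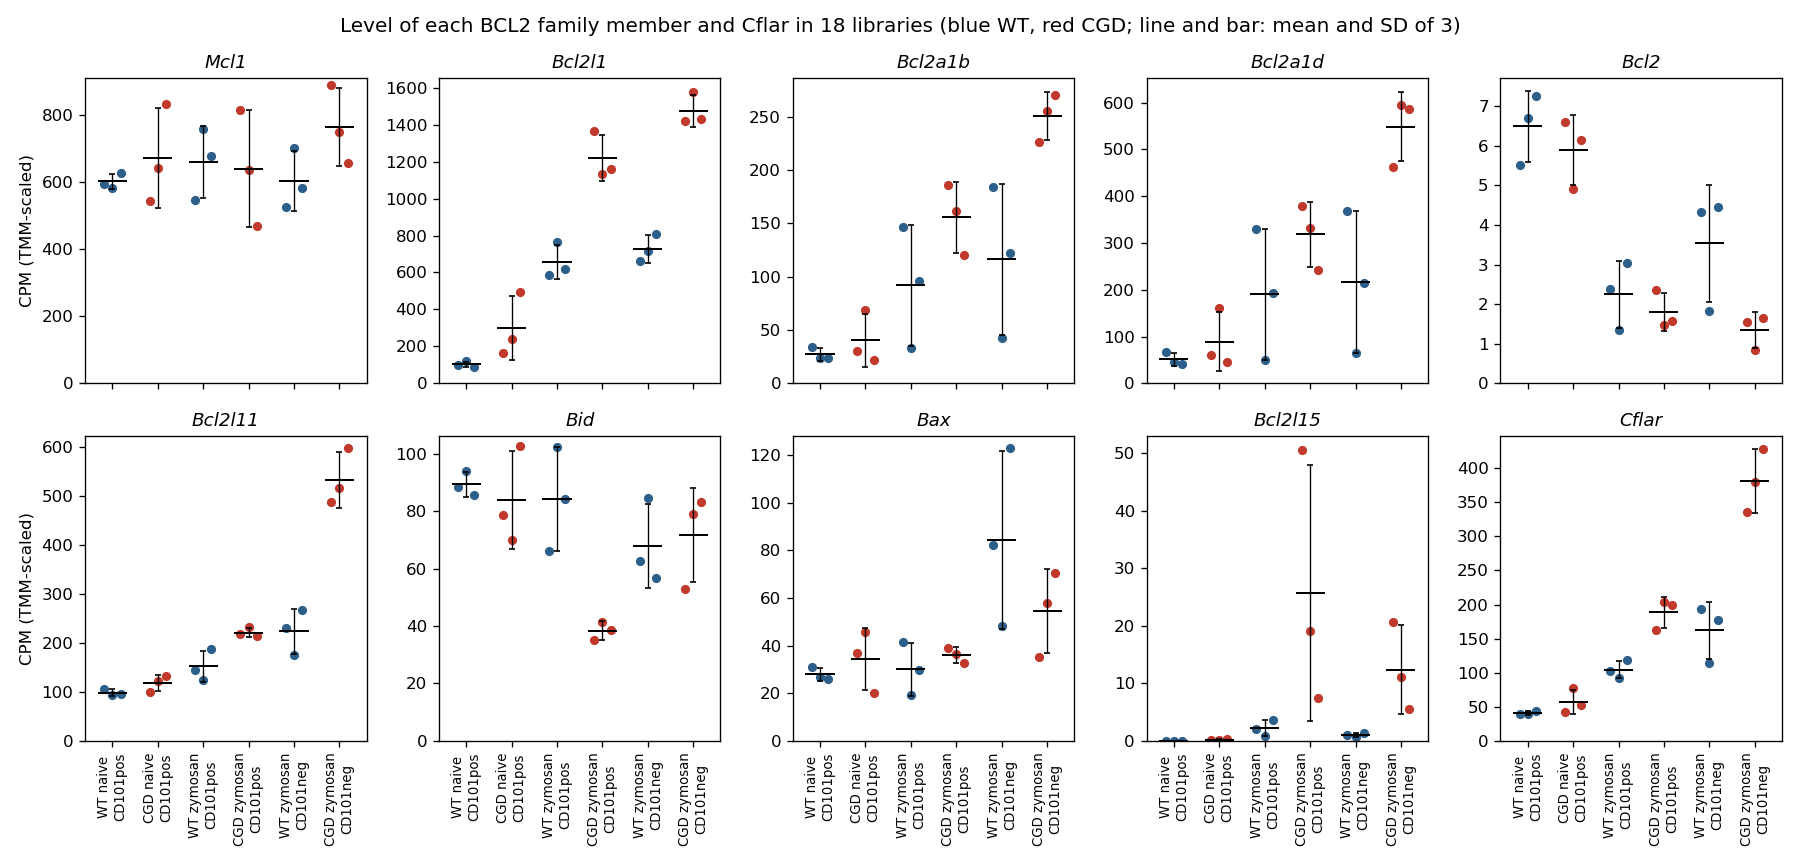
Level of each member in the 18 libraries (y axis, CPM on a linear scale from 0 that differs between panels; x axis, the 6 groups; points are libraries in the order of replicates 1 to 3, lines and bars are the mean and SD of 3). Mcl1 stays between 469 and 889 CPM, while Bcl2l1, Bcl2l11 and Cflar are highest in the 3 CGD zymosan CD101neg libraries.

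Of the 10 members, 9 differed somewhere among the 6 groups by edgeR's quasi-likelihood test with Benjamini-Hochberg adjustment, which 30.3% of all tested genes also passed. Cflar had the lowest adjusted p (8.79e-08), followed by Bcl2l11 (2.02e-07), Bcl2l1 (4.33e-07) and Bcl2l15 (5.98e-07). Bcl2, Bcl2a1b, Bid, Bcl2a1d and Bax passed at 0.000236 to 0.00512, and Mcl1 did not (adjusted p = 0.733).

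In the genotype comparisons, which ask what loss of the oxidase changes in each sort of cell, 5 of 10 members passed between CGD and WT zymosan CD101neg cells (4 higher and 1 lower in CGD, against 12.9% of all genes). Between zymosan CD101pos cells 3 passed (2 higher, 1 lower, against 5.3%), and between naive cells 1 (against 0.127%). The median log2 fold change of the 10 was 1.06, 0.64 and 0.39 in these 3 comparisons, beside -0.08, 0.02 and -0.000505 over all tested genes. In CD101neg cells the 3 CGD and 3 WT libraries did not overlap for 7 members, 6 higher and 1 lower in CGD, against 30% of all genes. In zymosan CD101pos cells this held for 5 members, 4 higher and 1 lower (against 21.9%), and in naive cells for 2, both higher (against 14.7%). Comparisons that share a group, such as the genotype comparison of zymosan CD101pos cells and the zymosan comparison of CGD cells, are not independent. Because the members were chosen with earlier results known, their counts and medians beside those of all genes are a description and not a test.
Transcripts of macrophage markers moved between the genotypes too. The summed level of 10 alveolar macrophage markers was 449 to 675 CPM in WT and 1600 to 2620 in CGD CD101neg libraries, and 486 to 682 and 2280 to 2760 in zymosan CD101pos libraries, in CGD mostly from Chil3, and no marker was at 0 in a zymosan library. In CD101neg cells 1 of these markers, Chil3, rose and 5 fell, and 7 of 9 monocyte and interstitial macrophage markers fell. In zymosan CD101pos cells 4 of 10 and 3 of 9 rose and 0 and 1 fell. In naive cells 1 of the 10, Marco, rose, and the sums were 201 to 488 CPM in CGD and 170 to 195 in WT, without overlap. The share of counts in mitochondrial genes also differed without overlap after zymosan, at 0.316% to 0.359% in CGD and 0.492% to 0.581% in WT CD101neg libraries and 0.33% to 0.396% and 0.425% to 0.571% in CD101pos libraries. The part of macrophage RNA and of the mitochondrial share in the members' differences was not tested, nor was which cells the Chil3 reads came from.

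**Figure D2:**
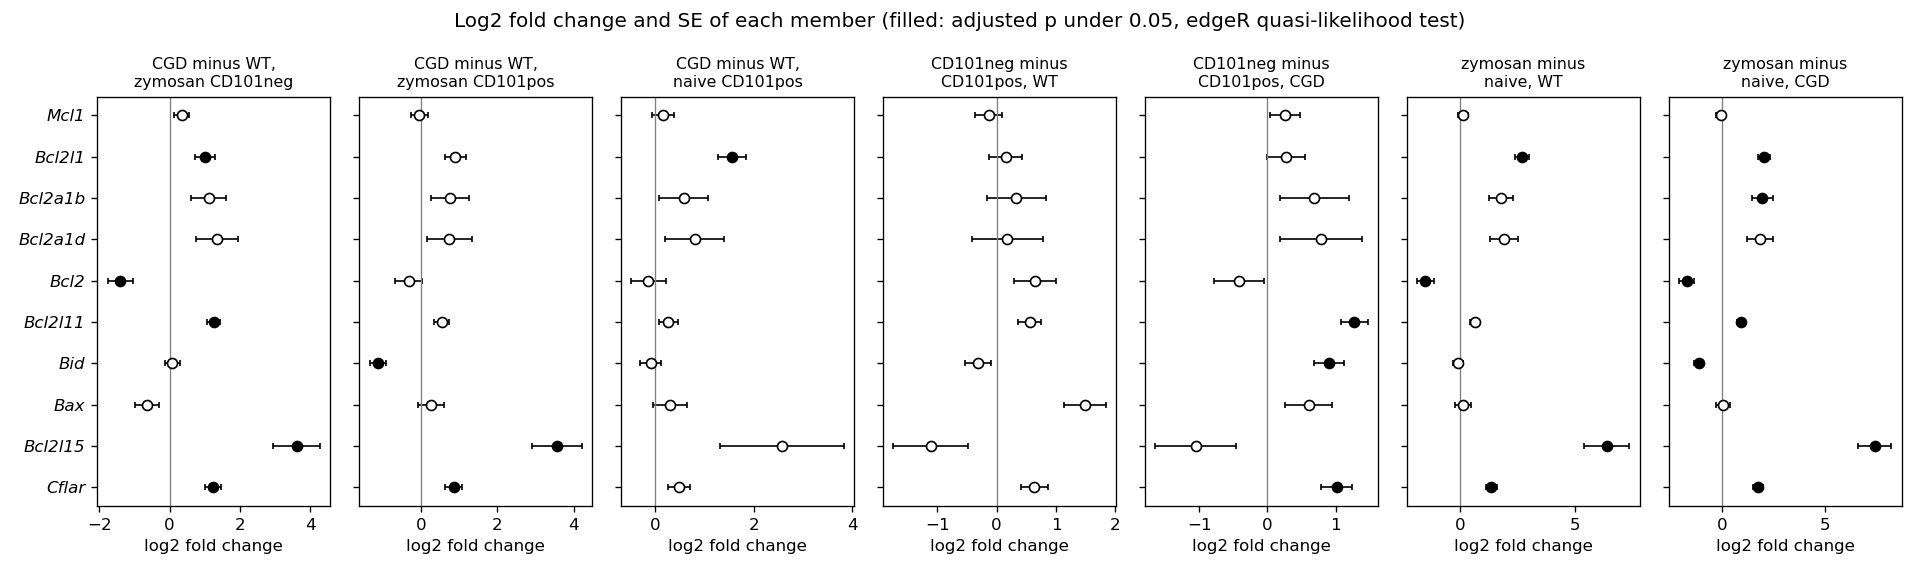
Log2 fold change of each member (x axis, points with SE; scales differ between panels) in the 7 pairwise comparisons, 1 panel each. Filled points passed an adjusted p of 0.05, 5 of 10 in the CD101neg genotype comparison and 7 of 10 in the zymosan comparison of CGD cells, and Mcl1 is open in every panel.

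Among the guardians, Mcl1 was level. Its 18 libraries ran from 469 to 889 CPM, and it had no call in any of the 9 contrasts by edgeR. WT naive libraries held 595, 583 and 628 CPM of Mcl1, and CGD zymosan CD101neg libraries, the group with the highest mean, 889, 748 and 657 CPM. Those 2 groups did not overlap, but the adjusted p over all 6 groups was 0.733 (edgeR).

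Bcl2l1, which encodes BCL-XL, was low in naive cells, higher after zymosan and highest in CGD cells after zymosan. WT libraries held 96.8, 118 and 90.5 CPM when naive, 586, 762 and 619 in zymosan CD101pos and 659, 718 and 811 in zymosan CD101neg cells. The corresponding CGD libraries held 162, 239.7 and 497 CPM, then 1364, 1135 and 1161, then 1418, 1576 and 1429. In each of the 3 pairs of groups every CGD library was above every WT library, and in each genotype every zymosan library was above every naive one.
The log2 fold change of Bcl2l1 between CGD and WT was 1.02 ± 0.28 (SE) in CD101neg cells (adjusted p = 0.0238, edgeR), 0.90 ± 0.28 in zymosan CD101pos cells (adjusted p = 0.0762; 0.0401 with library size only, 0.0223 with no filter and 0.0389 by DESeq2) and 1.56 ± 0.29 in naive cells (adjusted p = 0.0408). The CD101neg call was lost without CGD replicate 1 or 2 or WT replicate 1 or 2 (adjusted p = 0.0528 to 0.0816) and with scaling by library size only (0.0988). The naive call was lost when any library but CGD replicate 1 was left out (0.058 to 0.234), with the replicate number as a block (0.0813) and in a fit of those 2 groups alone (0.362). CGD naive replicate 3 was the highest naive library, and without it the log2 fold change was 0.99 ± 0.21 (0.106). That library also stood out in the summed CPM of 8 neutrophil markers, at 69930 against 28790 and 25260 in CGD naive replicates 1 and 2. The part of those markers in the Bcl2l1 level was not tested. From naive to zymosan CD101pos cells Bcl2l1 rose by 2.69 ± 0.30 on the log2 scale in WT (adjusted p = 3.36e-05) and by 2.03 ± 0.29 in CGD (0.000131).
Among the RefSeq promoter entries of Bcl2l1, the one at chr2:152830668-152830967 (GRCm38.p6, − strand) is shown because it holds the one match among the 13 entries of the 10 members to the NF-kB consensus, a motif of factors that zymosan signalling engages. The match, near the far end from the start site, is in capitals. Searched on both strands, that consensus was in 8.46% of 32851 promoter entries, and a match does not show that a factor bound there.
Bcl2l1: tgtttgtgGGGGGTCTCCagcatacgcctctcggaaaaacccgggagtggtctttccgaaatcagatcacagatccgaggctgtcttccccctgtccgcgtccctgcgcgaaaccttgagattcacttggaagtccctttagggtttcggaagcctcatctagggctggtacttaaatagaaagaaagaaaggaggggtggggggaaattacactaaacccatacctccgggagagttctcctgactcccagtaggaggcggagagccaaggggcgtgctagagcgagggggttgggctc
The STAT motif TTCNNNGAA, also searched on both strands, was in 8.3% of all entries and in no entry of a member.

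The A1 copies were higher after zymosan, with wide spread in WT. Bcl2a1b stood at 34.4, 23.3 and 23.5 CPM in WT naive, 147, 33.4 and 95.7 in WT zymosan CD101pos and 184, 42.0 and 122 in WT zymosan CD101neg libraries. In CGD it stood at 30.6, 68.7 and 21.8 CPM in naive, 185, 161 and 119.9 in zymosan CD101pos and 226, 255 and 270.4 in zymosan CD101neg libraries. WT replicate 2 was the lowest library of both WT zymosan sorts, and all CGD CD101neg libraries lay above all WT CD101neg libraries.
Bcl2a1d, read in CPM, followed the same order of groups. Outside the per-length ranking above, levels of Bcl2a1b and Bcl2a1d are not compared. Of the exon bases of Bcl2a1b, 401 (49.1% of its own) are shared with the same-strand gene model Gm29094, and the treatment of shared reads is not stated. Its WT libraries held 65.9, 46.4 and 40.8 CPM when naive, 329, 49.2 and 193 as zymosan CD101pos and 369, 65.4 and 214 as zymosan CD101neg cells. Its CGD libraries held 59.8, 161 and 45.8, then 379.9, 333 and 242.3, then 463, 596 and 586 CPM. Both genes were high in CGD naive replicate 2 and low in WT zymosan replicate 2, and across the 18 libraries their log2 CPM correlated at r = 0.994 (within groups 0.995), a description of genes that can share reads.
From naive to zymosan CD101pos cells of CGD mice, Bcl2a1b rose by 1.95 ± 0.52 (adjusted p = 0.0189, edgeR), a call lost without naive replicate 1 or 3 or zymosan replicate 1 or 2 (0.0511 to 0.0803), with library size only (0.059) and with no filter (0.0807). Bcl2a1d gave 1.84 ± 0.61 there (0.0574; 0.0199 in a fit of the 2 groups alone and 0.00858 by DESeq2), and all A1 copies summed rose by 2.08 ± 0.61 (0.0324). In WT the summed copies gave 2.09 ± 0.61 (0.069), and without WT zymosan CD101pos replicate 2 both Bcl2a1b (0.0173) and Bcl2a1d (0.0246) passed, as they did by DESeq2 (0.00648 and 0.012). Between CGD and WT CD101neg cells Bcl2a1b gave 1.11 ± 0.51 (0.157), Bcl2a1d 1.34 ± 0.60 (0.152) and the sum 1.15 ± 0.60 (0.222), so none passed.
The library that is low in A1 also stood out in neutrophil markers: the summed CPM of the 8 markers, mostly S100a8 and S100a9, was highest of its group in WT replicate 2 of both sorts, at 81840 in CD101pos and 75980 in CD101neg cells, against 28080 to 48990 and 17340 to 31880 in the other two. The part of those markers in the A1 levels was not tested.

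**Figure D3:**
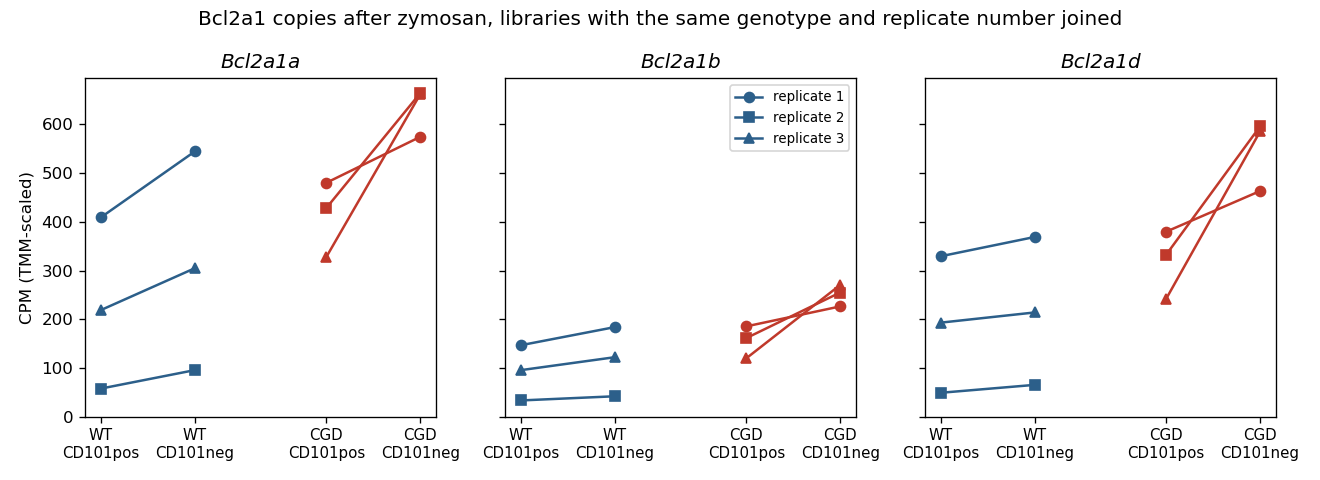
Bcl2a1a, Bcl2a1b and Bcl2a1d after zymosan (y axis, CPM; x axis, genotype and sort; lines join libraries of the same genotype and replicate number; circles, squares and triangles are replicates 1, 2 and 3). WT replicate 2 is lowest in both WT sorts for all 3 copies, and all 3 lines of each genotype go up from CD101pos to CD101neg.

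Bcl2, the founding guardian, was the least abundant of these guardians and the one that fell. WT libraries held 5.52, 6.70 and 7.25 CPM when naive, 2.37, 1.35 and 3.04 in zymosan CD101pos and 4.32, 1.84 and 4.46 in zymosan CD101neg cells. CGD libraries held 6.61, 4.90 and 6.16, then 2.36, 1.48 and 1.58, then 1.55, 0.834 and 1.66 CPM. Every naive library lay above every zymosan CD101pos library, and every CGD CD101neg library below every WT CD101neg library.
Bcl2 fell by 1.52 ± 0.36 on the log2 scale from naive to zymosan CD101pos cells in WT (adjusted p = 0.0204, edgeR), by 1.71 ± 0.36 in CGD (0.00366), and was lower in CGD than in WT CD101neg cells by a log2 fold change of -1.40 ± 0.37 (0.0172). That last call was lost without CGD replicate 2 or WT replicate 1 or 3 (0.0651 to 0.0903) and in a fit of the 2 groups alone (0.0806). The WT zymosan call was lost without any of naive replicates 2 and 3 and zymosan replicates 1 and 2 (0.0521 to 0.0837).
B cells express Bcl2, and transcripts of B cell markers were present in these sorts. The summed level of 7 B cell markers was 431 to 456 CPM in WT naive and 299.8 to 438 in CGD naive libraries, 150.4 to 177 and 45.9 to 66.3 in zymosan CD101pos, and 118 to 146 and 28.6 to 46.9 in zymosan CD101neg libraries of WT and CGD. Of the 7 markers 6 fell in each zymosan comparison, 5 in the CD101neg and 4 in the zymosan CD101pos genotype comparison, and Pax5 was at 0 in at least 1 library of 3 zymosan groups. Between WT CD101neg and CD101pos cells Bcl2 gave 0.65 ± 0.35 (adjusted p = 0.569, edgeR), and these libraries overlapped. It was higher in the CD101neg library in each of the 3 numbers (0.44 to 0.87 on the log2 scale). In zymosan CD101pos cells the Bcl2 levels of the genotypes overlapped. The part of B cell RNA in the Bcl2 result was not tested, nor was which cells the marker reads came from.

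**Figure D4:**
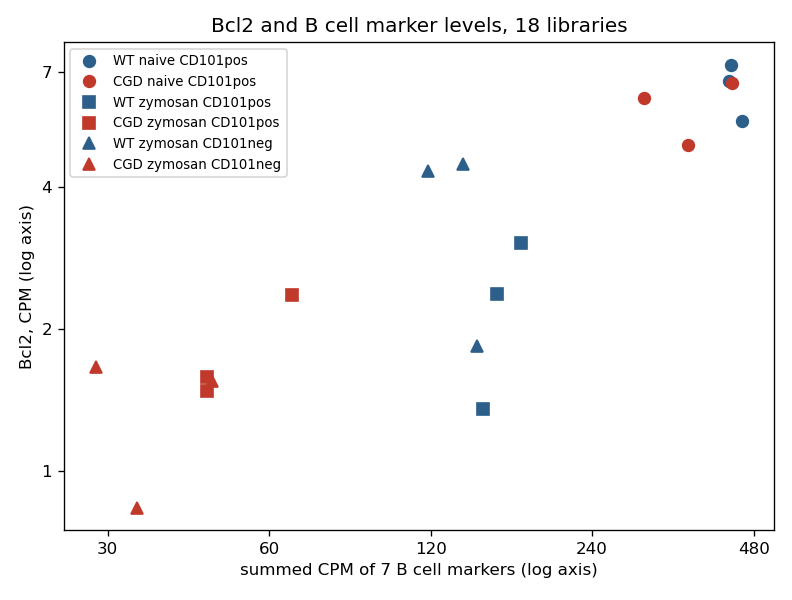
Bcl2 (y axis, CPM, log axis) against the summed CPM of 7 B cell markers (x axis, log axis) in the 18 libraries (blue WT, red CGD; circles naive, squares zymosan CD101pos, triangles zymosan CD101neg). The 6 naive libraries are highest on both axes, and the CGD zymosan libraries lie at 28.6 to 66.3 CPM of B cell markers, below all WT zymosan libraries.

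Of the BH3-only genes, Bcl2l11 was highest in CGD CD101neg cells by a wide margin. This gene encodes BIM, which binds all the guardians. Its CGD CD101neg libraries held 487, 516 and 598 CPM and its WT CD101neg libraries 229.8, 175 and 266 CPM. CD101pos libraries after zymosan held 217, 232 and 213 CPM in CGD and 145, 125 and 187 in WT, and naive libraries 99.8, 122 and 132 in CGD and 107, 92.7 and 94.9 in WT. The 3 CGD CD101neg libraries stood well above all 15 others.
Bcl2l11 was 1.25 ± 0.19 higher on the log2 scale in CGD than in WT CD101neg cells (adjusted p = 0.000421, edgeR) and 1.27 ± 0.19 higher in CD101neg than in CD101pos cells of CGD (0.00127). No alternative that was run ended either call. From naive to zymosan CD101pos cells of CGD it rose by 0.91 ± 0.19 (0.00399). In WT that comparison gave 0.64 ± 0.19 (0.0755; 0.0496 without zymosan replicate 2 and 0.0152 by DESeq2), and zymosan CD101pos cells gave 0.54 ± 0.19 between genotypes (0.125).
One of the 2 RefSeq promoter entries of Bcl2l11 (chr2:128125788-128126087, GRCm38.p6, + strand) holds GTAAACA, the forkhead (FOXO) motif, at -227 to -221 from the start site. It is shown because FOXO factors are textbook regulators of this gene and no entry of another member held the motif, which was in 3.65% of all entries when both strands were searched.
Bcl2l11: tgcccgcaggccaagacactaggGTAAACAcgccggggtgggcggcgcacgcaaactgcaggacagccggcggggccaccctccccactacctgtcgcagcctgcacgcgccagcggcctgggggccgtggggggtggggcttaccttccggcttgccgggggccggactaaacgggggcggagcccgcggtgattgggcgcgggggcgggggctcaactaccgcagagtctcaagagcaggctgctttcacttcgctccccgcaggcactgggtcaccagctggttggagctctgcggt

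Bid, whose protein links death receptors to mitochondria once caspase-8 has cut it, was low in a single group. CGD zymosan CD101pos libraries held 35.2, 41.6 and 38.5 CPM, below all other 15 libraries. WT zymosan CD101pos libraries held 66.1, 102 and 84.3 CPM, CGD CD101neg libraries 52.8, 79.2 and 83.3 and CGD naive libraries 78.6, 69.9 and 103. WT CD101neg libraries held 62.6, 84.5 and 56.8 CPM and WT naive libraries 88.6, 94.2 and 85.6.
The log2 fold change of Bid was -1.13 ± 0.22 between CGD and WT zymosan CD101pos cells (adjusted p = 0.00533, edgeR), -1.12 ± 0.22 between zymosan and naive CGD cells (0.00196) and 0.90 ± 0.22 between CD101neg and CD101pos CGD cells (0.0195). The last was lost when any of those libraries but CD101neg replicate 1 was left out (0.0576 to 0.0905) and with library size only (0.0867). Bid shares 628 exon bases, 17.7% of its own, with Bcl2l13 on the opposite strand, and no source used here states whether the counting used strand.

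Bax, the effector, was highest in WT CD101neg cells. Its libraries there held 82.2, 48.2 and 123 CPM, against 41.4, 19.1 and 29.7 CPM in WT zymosan CD101pos cells, and these groups did not overlap. CGD CD101neg libraries held 35.3, 57.9 and 70.4 CPM and overlapped CGD CD101pos libraries, at 39.0, 36.3 and 32.5. WT naive libraries held 31.0, 26.9 and 25.8 CPM of Bax, and CGD naive libraries 36.9, 45.9 and 20.2.

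Bcl2l15, also called Bfk, is a family member with a BH3 motif and a poorly known role. It went from next to no reads in naive cells to its highest levels in CGD cells after zymosan. Naive libraries had 2, 2 and 0 reads in WT and 11, 5 and 14 in CGD. WT zymosan libraries held 2.07, 0.860 and 3.58 CPM as CD101pos and 1.01, 0.632 and 1.38 as CD101neg cells, and CGD zymosan libraries 50.5, 19.0 and 7.49 and 20.6, 11.01 and 5.45 CPM. Every CGD zymosan library was above every WT zymosan library, and CGD libraries of one sort spread over more than a factor of 3.
Between CGD and WT the log2 fold change of Bcl2l15 was 3.61 ± 0.66 in CD101neg (adjusted p = 0.00193, edgeR) and 3.56 ± 0.65 in zymosan CD101pos cells (0.00423), and no alternative that was run ended either call. Pooled over 3 libraries, the ratio of its counts between zymosan and naive CD101pos cells was 92.1 in WT (376 against 4 counts, 95% exact interval 35.7 to 339.9) and 150 in CGD (4210 against 30, 105 to 222), with intervals that cover counting error only. The fitted values were 6.39 ± 1.00 (0.00122) and 7.37 ± 0.82 (1.34e-05), and with so few naive reads they depend on the prior count.
Both genes that flank Bcl2l15 on the same strand of chromosome 3, picked after their values were seen, were also higher in CGD CD101neg cells. Ap4b1, a subunit of the AP-4 adaptor, stood at 29.7 ± 2.72 CPM (SD, n = 3) in CGD and 12.9 ± 3.46 in WT CD101neg cells, a log2 fold change of 1.21 ± 0.24 (0.00327), and at 37.1 ± 10.5 against 19.4 ± 5.46 CPM in zymosan CD101pos cells (0.94 ± 0.24, 0.0279, up to 0.145 with a library left out, 0.0616 with library size only and 0.1 in a fit of the 2 groups alone). Ptpn22, a phosphatase, gave 1.72 ± 0.42 in CD101neg cells (0.0131, up to 0.0589 with a library left out and 0.0636 with no filter) and did not pass in zymosan CD101pos cells (0.208). Gm43064, a same-strand gene model that was not among the table's IDs, shares 569 exon bases, 21.0% of those of Bcl2l15.

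Cflar, outside the family but the brake on caspase-8, rose with zymosan and was highest in CGD CD101neg cells. Naive libraries held 39.6, 38.9 and 44.0 CPM in WT and 41.8, 76.9 and 52.1 in CGD. After zymosan, CD101pos libraries held 103, 92.7 and 118 CPM in WT and 162, 203 and 200.01 in CGD, and CD101neg libraries 194, 115 and 178 in WT and 335, 380.1 and 428 in CGD. CGD libraries were above WT libraries in both zymosan sorts without overlap, and zymosan libraries above naive ones in both genotypes.
From naive to zymosan CD101pos cells Cflar rose by 1.36 ± 0.23 on the log2 scale in WT (adjusted p = 0.00186, edgeR) and by 1.73 ± 0.23 in CGD (7.07e-05). CD101neg cells of CGD were 1.02 ± 0.23 above CD101pos cells of CGD (0.0132), a call lost without CD101neg replicate 2 or 3 or CD101pos replicate 1 (0.0523 to 0.0619) and with library size only (0.145). The genotype difference in CD101neg cells was 1.23 ± 0.23 (0.00179) and in zymosan CD101pos cells 0.85 ± 0.23 (0.0334). The latter was lost when any library but CGD replicate 1 was left out (0.0637 to 0.14), in a fit of the 2 groups alone (0.0625) and with library size only (0.117). Scaling by library size only, which lowered the median of all genes to -0.57 in the CD101neg comparison, ended the CD101neg call of Cflar (0.73, adjusted p = 0.0698) and kept those of Bcl2l11 and Bcl2l15.

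Between CD101neg and CD101pos cells after zymosan, Bax stood out in WT and Bcl2l11, Bid and Cflar in CGD. In WT no member passed (0 of 10, against 0.44% of all genes; 3 had an unadjusted p under 0.05, and DESeq2 called 1, Bax), and Bax, at 1.49 ± 0.35, came nearest (adjusted p = 0.06, edgeR; 0.0106 without CD101neg replicate 2). It was also the 1 member whose WT sorts did not overlap (against 12% of all genes). At the unadjusted p and by DESeq2 no share of all genes is given, so those counts are not read as results about the members. WT libraries with the same replicate number deviated together across genes, and with the replicate number as a block within genotype 4 of 10 passed, against 10.5% of all genes: Bax (1.45 ± 0.21, 0.000301), Cflar (0.60 ± 0.14, 0.00858) and Bcl2l11 (0.55 ± 0.13, 0.00884) were higher and Bcl2l15 (-1.02 ± 0.23, 0.00711) lower in CD101neg cells. In each of the 3 numbers Bax was higher in the CD101neg library, by 0.99 to 2.05 on the log2 scale, Cflar by 0.31 to 0.92 and Bcl2l11 by 0.49 to 0.66. In CGD 3 of 10 passed (against 7.35%), Bcl2l11, Bid and Cflar, all higher in CD101neg cells, and 6 did not overlap, all higher (against 28.9%). With the replicate number as a block within genotype, Bcl2a1b (adjusted p = 0.00291, edgeR) and Bcl2a1d (0.00164) also passed as higher in CGD CD101neg cells. Bcl2l15 (0.00244) passed as lower there. Of the macrophage markers, 6 of 10 alveolar and 5 of 9 monocyte and interstitial ones were lower in CD101neg than in CD101pos cells of CGD. Their summed levels overlapped. The alveolar sum was 1600 to 2620 CPM in CD101neg and 2280 to 2760 in CD101pos libraries, and the other sum 697 to 937 and 801 to 1070 CPM. The part of macrophage RNA in these members was not tested.

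Zymosan against naive cells gave 4 of 10 members in WT (against 3.79% of all genes) and 7 of 10 in CGD (against 12.8%). Groups did not overlap for 5 members in WT (4 higher, 1 lower, against 23.7%) and 8 in CGD (6 higher, 2 lower, against 32%). The median log2 fold change of the 10 was 0.995 in WT and 1.32 in CGD, beside -0.03 and 0.00274 over all genes. By edgeR, Bcl2l15, Bcl2l1 and Cflar rose and Bcl2 fell in both, and in CGD Bcl2a1b and Bcl2l11 also rose and Bid fell. In WT, DESeq2 called Bcl2a1b (0.00648) and Bcl2l11 (0.0152) too. Alveolar macrophage markers were higher after zymosan as well: 6 of 10 rose in WT, with a sum of 170 to 195 CPM in naive and 486 to 682 in zymosan libraries. In CGD 5 of 10 rose, and the sum went from 201 to 488 CPM in naive to 2280 to 2760 in zymosan libraries, where it came mostly from Chil3. The monocyte and interstitial macrophage markers C1qa, C1qb and C1qc rose in both genotypes. The part of macrophage RNA in the zymosan results was not tested, nor was which cells the Chil3 reads came from. In the interaction of genotype with zymosan no member passed (0 of 10, against 0.32%; 1 had an unadjusted p under 0.05, and DESeq2 called 0), and the lowest adjusted p was that of Bid (-1.04 ± 0.30, 0.195). In the interaction of genotype with subset no member passed either (0 of 10, against 0.851%; 3 had an unadjusted p under 0.05, and DESeq2 called 1, Bid). There Bid gave 1.21 ± 0.31 (adjusted p = 0.0704) and Bcl2l11 0.72 ± 0.27 (0.227), neither past the threshold. With the replicate number as a block within genotype, Bid (1.17 ± 0.20, 0.00128), Bcl2l11 (0.70 ± 0.18, 0.0152) and Bax (-0.92 ± 0.30, 0.0479) passed. The labels do not state these numbers as pairs. Same-numbered CGD libraries correlated weakly in their deviations from group means (r = 0.0245 to 0.26), and different-numbered ones ran from -0.256 to 0.0121. Because deviations from a group mean cancel out within the group, these values depend on each other. Their order does not show that the numbers are pairs. Without the block, the adjusted p of Bid in this interaction was 0.0388 without CGD CD101neg replicate 1, 0.0332 without WT CD101neg replicate 2, 0.0251 without WT CD101pos replicate 1, 0.0422 with no filter and 0.00969 by DESeq2. For both interactions the share of all genes is given at the adjusted p of edgeR only. The unadjusted and DESeq2 counts are therefore not read as results about the members.

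Within a library, ratios of 2 transcripts do not depend on scaling between libraries. The log2 ratio of Mcl1 to Bcl2l11 was 0.51 ± 0.37 (SD, n = 3) in CGD and 1.44 ± 0.49 in WT CD101neg cells, and 2.5 ± 0.14 and 2.62 ± 0.13 in naive cells. Counts of Mcl1 were thus closest to those of Bcl2l11 in CGD CD101neg cells, where the 3 libraries lay below all WT CD101neg libraries. That of Bcl2l1 to Bax was 4.81 ± 0.49 in CGD and 3.21 ± 0.61 in WT CD101neg cells, again without overlap. Cflar to Casp8 was 1.2 ± 0.14 in CGD and 1.87 ± 0.28 in WT zymosan CD101pos cells, without overlap, so Cflar was lower relative to Casp8 in CGD there although its own level was higher. In naive cells Bcl2l1 to Bax was 3.05 ± 1.37 in CGD and 1.86 ± 0.25 in WT. In two-sided exact permutation tests these 4 genotype differences in ratios (that of Mcl1 to Bcl2l11 in CD101neg cells only) had p = 0.1, the smallest that 3 against 3 allow, and 0.3 after adjustment over the 12 ratio tests made. Ratios of Bcl2a1b plus Bcl2a1d to Bcl2l11 overlapped in every genotype comparison (exact p = 0.6 to 0.8). Bcl2a1a and Bcl2a1c were not part of these ratios, so A1 as a whole was not tested in this way.

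**Figure D5:**
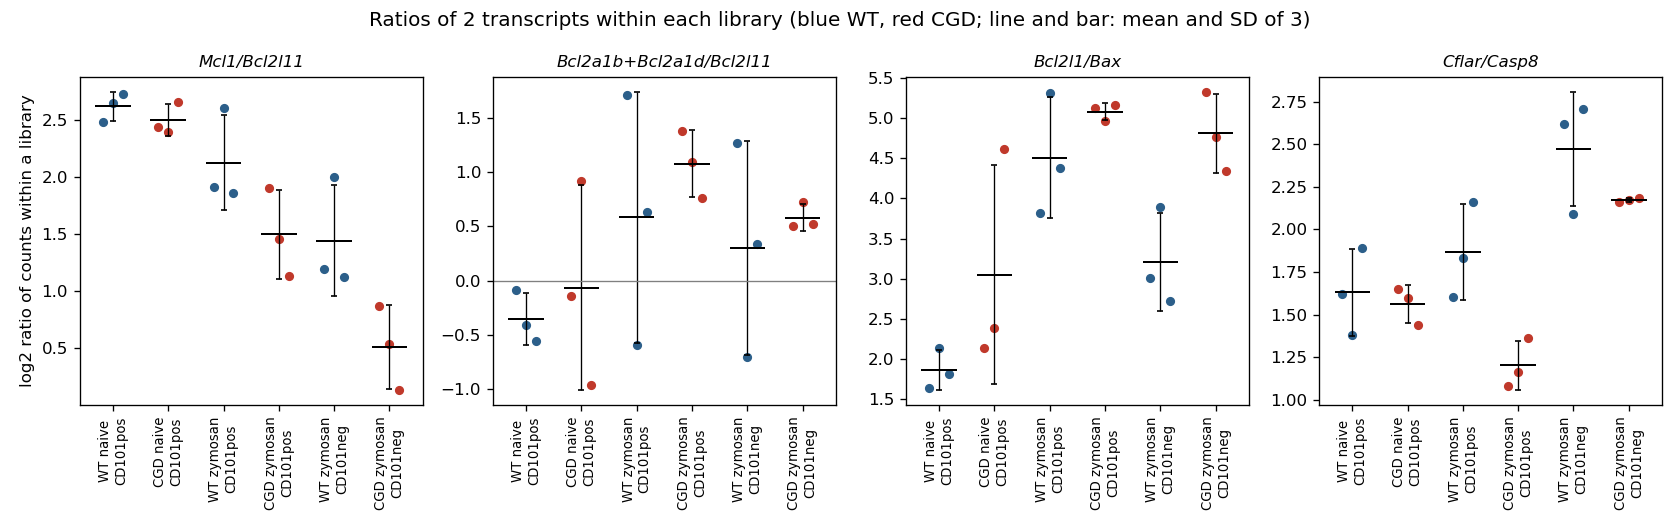
Log2 ratio of the counts of 2 transcripts within a library (y axis; scales differ between panels and do not start at 0) in the 6 groups (x axis; points are libraries, lines and bars the mean and SD of 3). Mcl1 to Bcl2l11 is lowest in CGD zymosan CD101neg libraries (0.14 to 0.87), and Bcl2l1 to Bax is lowest in WT naive libraries (1.64 to 2.13).

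Other genes of the pathway came from lists of death and survival genes. In CGD against WT CD101neg cells, Casp8, the initiator that Cflar restrains and its neighbour on chromosome 1, was 1.56 ± 0.21 higher (adjusted p = 0.000108, edgeR; 84.5 against 28.6 CPM), and it was 1.51 ± 0.21 higher in zymosan CD101pos cells (0.000491). Fas, a death receptor, rose by 1.06 ± 0.19 in CD101neg cells (0.00114), and Ripk3, the necroptosis kinase, by 1.27 ± 0.21 (0.000679) and by 1.71 ± 0.21 in zymosan CD101pos cells (0.000158). Of 9 tested caspase and apoptosome genes, 2 rose (Casp8 and Diablo) and 1 fell (Casp2) in CD101neg cells and 1 rose and 2 fell (Casp2 and Casp9) in zymosan CD101pos cells, where Casp2 fell by 1.29 ± 0.21 (0.00169). Of 10 death receptor and necroptosis genes 2 rose and 1, Fadd, fell in CD101neg cells, and Fas and Ripk3 rose in zymosan CD101pos cells. With a library left out the adjusted p reached 0.12 for Diablo, 0.124 for Fadd, 0.0847 for Casp9 and 0.0756 for Fas in zymosan CD101pos cells. With library size only the log2 fold change of Diablo in CD101neg cells was 0.05 (0.883), and with no filter its adjusted p was 0.224, while Casp8, Casp2 and Ripk3 kept each genotype call named here.
Of 15 family genes outside the 10, 0 passed by edgeR in CD101neg cells (3 guardians, 5 BH3-only and 7 effector and BCL2-like genes), 4 had an unadjusted p under 0.05, and DESeq2 called 1. Of 5 genes of MCL1 turnover 0 passed in either sort by edgeR, at an unadjusted p under 0.05 or by DESeq2. In zymosan CD101pos cells the BH3-only gene Bmf was lower in CGD by a log2 fold change of -2.43 ± 0.37 (0.00114; 1.21 against 6.6 CPM), and Bnip3 was lower (-1.07 ± 0.28, 0.031, up to 0.191 with a library left out and 0.0525 in a fit of the 2 groups alone), so 2 of the 15 passed there. From naive to zymosan CD101pos cells of CGD 3 of the 15 passed: Bcl2a1a rose, and Bmf and Bnip3 fell. Of 9 inhibitor of apoptosis genes 1 rose in CD101neg cells, Naip5 (0.71 ± 0.20, 0.0265, up to 0.112 with a library left out; 0.21 and 0.56 with library size only), and 0 in zymosan CD101pos cells (1 at an unadjusted p under 0.05 and 1 by DESeq2). At the unadjusted p and by DESeq2 no share of all genes is given beside these list counts.
Receptors for survival cytokines gave a call in 1 gene each in CD101neg and naive cells. Csf2ra, the alpha chain of the GM-CSF receptor, rose by 1.12 ± 0.23 in CD101neg cells (0.00359). Csf2rb2, a beta chain, was 1.45 ± 0.26 higher in naive CGD cells (0.0384, up to 0.234 with a library left out, 0.0584 with library size only and 0.185 in a fit of the 2 groups alone). From naive to zymosan CD101pos cells Casp8 rose by 1.12 ± 0.21 in WT (0.0037; 0.0695 with library size only) and 2.08 ± 0.21 in CGD (3.62e-06), and Csf2rb2 by 2.49 ± 0.27 (2.91e-05) and 1.64 ± 0.26 (0.000395). Bmf fell by 3.36 ± 0.38 in CGD (1.29e-05).

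The level of each member was also set against every other tested gene of at least 10 CPM in a group, 5896 candidates, by Pearson's correlation of log2 CPM over the 18 libraries. These libraries share the group differences described above, so the values describe likeness and carry no test. Most like Cflar were Rffl (r = 0.989), Adora2b (0.987) and Sod2 (0.984), and most like Bcl2l11 were Rab7 (0.977), Atp6v1e1 (0.973) and Zfp131 (0.97). Bcl2l1 was most like Upp1 (0.994), Csf2rb2 (0.979) and Alas1 (0.966). Bcl2l15 was most like its neighbour Ap4b1 (0.983), followed by Klhl6 (0.976) and Prnp (0.965).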

How the data were processed

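Total RNA of sorted cells was made into libraries with a Clontech SMARTer kit, per the labels' protocols. The deposited values are raw counts per gene, and the submitters' processing notes name featureCounts 1.4.6-p5, Subread and the aligner STAR 2.5.1a. The genome build, the gene annotation and the use of strand were not given in the sources used here. Of 40757 lines, 276 repeated gene IDs were counted once. edgeR 4.0.16 (R 4.3.3) kept 16575 genes with filterByExpr, scaled with TMM and fitted all 18 libraries in 1 robust quasi-likelihood model by group (12 residual degrees of freedom), with Benjamini-Hochberg adjustment over all tested genes and a threshold of 0.05. The SE is the log2 fold change divided by the square root of F. Comparisons were 7 pairwise and 2 interactions; the interactions subtract the WT difference from that of CGD. Ratios used counts plus 0.5. The fit was also run on simulated counts of independent libraries, without replicate pairs or a mixture of cells. That run does not bear on the calls lost under the alternatives. All members were named in every comparison, and from each list at most 4 genes with the lowest p among those that passed. Members and lists were chosen with earlier results of these data known, and 1 gene each of the caspase and B cell lists is not reported here. Same-numbered WT CD101neg and CD101pos libraries correlated in their deviations from group means (r = 0.312 to 0.487). In each other pair of groups at least 1 same-number correlation was under 0.1. The main fit had no replicate block. A fit of the zymosan groups with the replicate number as a block within genotype was an alternative. Alternatives were RLE factors, library size only, no filter, a replicate block, only the groups compared, DESeq2 1.42.0 and each library left out.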

Additional observations from a re-analysis of the deposited data

How the results depend on the processing

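Counts of members that passed moved in these cases. The number or share of all genes under the same setting is given for only some of them. The other counts are not read as results about the members. With library size only, 3 of 10 passed between CGD and WT CD101neg cells (reported 5) and 1 between the CGD subsets (reported 3). With no filter 1 passed in the interaction with subset (reported 0). A replicate block over all numbers gave 0 in naive cells (reported 1), as did a fit of those groups alone. A replicate block within genotype gave 4 for the WT subsets (reported 0, against 10.5% of all genes with the block). It gave 6 for the CGD subsets (reported 3) and 3 for the interaction with subset. Same-numbered CGD libraries correlated less (r = 0.0245 to 0.26) than those of WT. DESeq2 called 1 in the WT subsets, 7 in zymosan against naive WT cells (reported 4) and 1 in the interaction with subset. Leaving out 1 library gave 3 to 5 members between CGD and WT CD101neg cells, 0 to 1 in naive cells, 0 to 1 for the WT subsets, 1 to 3 for the CGD subsets and 0 to 1 for the interaction with subset. No reported fold change reversed under these alternatives, and the cause of the lost calls was not tested. Over all genes, 2139 passed between CGD and WT CD101neg cells (1105 higher, 1034 lower), 3985 with library size only (413 higher, 3572 lower) and 1062 in a fit of those groups alone. In the test of any difference over the 6 groups 9 members passed with RLE factors, library size only, no filter and a replicate block, settings chosen for that test after the data were seen. One read is worth 0.014 to 0.0246 CPM, and levels of Bcl2l15 in naive cells rest on few reads.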
